A study of Homo sapiens with 6 samples.

Results

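The genes described here are 28 genes of cholesterol synthesis and of the SREBP pathway that controls it, chosen by name from a list of pathway members and found at 28 of the 58735 rows of the deposited gene count table. All 28 passed the filter on low counts, with 208 to 5878 counts per gene and library, and all were tested. Cells make cholesterol from acetyl-CoA through mevalonate, isoprenoids, squalene and lanosterol. The enzymes are switched on together by SREBP transcription factors, which SCAP escorts out of the endoplasmic reticulum when sterols are low and which the INSIG proteins hold back when sterols are high. Intestinal and colorectal epithelial cells both make cholesterol and take it up, and proliferating cells draw on the same pathway for membranes and for the lipid anchors of small GTPases.

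The RNA-seq compared knockdown of CNOT7, a deadenylase of the CCR4-NOT complex that shortens mRNA tails, with control cells in 3 libraries of each, within a study of how CNOT7 bears on the response of these cells to radiotherapy. The labels name the cells sw480, a human colorectal cancer line, with the genotypes CNOT7 control and CNOT7 knockdown and no treatment, whereas the study's text names HCT116, another colorectal cancer line, for this experiment. The knockdown was made stable with a lentiviral shRNA vector that also carries copGFP and a puromycin resistance gene, and the count columns mark the controls with shNc. Which CNOT7 shRNA the libraries carry, and whether the lines were pools or clones, is not given in the sources used here. Nothing states that the 3 libraries of a group came from separate cultures, so p-values measure only the spread between these libraries, which may be technical.

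The control libraries held 23788451 to 25982493 counts and the knockdown libraries 27523812 to 29104872. CNOT7 was at 169.1, 191.1 and 175.8 CPM (counts scaled to library size, with TMM factors) in control replicates 1, 2 and 3 and at 43.4, 47.2 and 38.6 in knockdown replicates 1, 2 and 3, so all knockdown libraries lay below all controls and 24.1% of the level was left. Of 8 epithelial markers, 7 were present, from 18.4 CPM (VIL1) to 2860 CPM (KRT8), and LGALS4 stayed at or below 0.326 CPM. By the edgeR test described below, VIL1 (log2 fold change 0.72) and CDH1 (0.51) were higher with knockdown. KRT19 (-0.18) and KRT8 (-0.15) were lower, and EPCAM, KRT18 and CDX2 did not pass. The leukocyte, T cell and endothelial markers PTPRC, CD3E and PECAM1 reached at most 0.571 CPM in any library, and the fibroblast gene COL1A1 was at 7.09 to 9.64 CPM. Being bulk RNA, the counts cannot tell fewer cells that use a gene from less RNA per cell.

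With CNOT7 knockdown, 17 of the 28 pathway genes were lower, 1 was higher (INSIG2) and 10 did not pass the test. The test was the quasi-likelihood test of edgeR, and a gene passed when its p-value, adjusted by Benjamini and Hochberg over all 17574 tested genes, was under 0.05. Across all tested genes, 25.2% passed that threshold, 11.9% as lower and 13.3% as higher, whereas 64.3% of the pathway genes passed it. The pathway genes were chosen with earlier results of these data known, which limits what this contrast can show. The falls were moderate in size. The median log2 fold change of the 28 genes was -0.28, against 0.0039 over all tested genes, and the 17 lower genes went from -0.84 (INSIG1) to -0.23 (SREBF2). In 9 of them the mean CPM fell by at least 25%. In all 17 the groups stayed apart, with the highest knockdown library below the lowest control, and INSIG2 and SCAP had groups that did not overlap in the other direction. Groups did not overlap in 38.8% of all tested genes, 18.2% as lower and 20.6% as higher. Summed over the 20 enzymes of synthesis, the level was 1082, 1057 and 1043 TPM, a level corrected for gene length, in control replicates 1, 2 and 3 and 872, 868.8 and 898.8 TPM in knockdown replicates 1, 2 and 3. All 3 knockdown sums were thus below all 3 control sums.

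**Figure D1:**
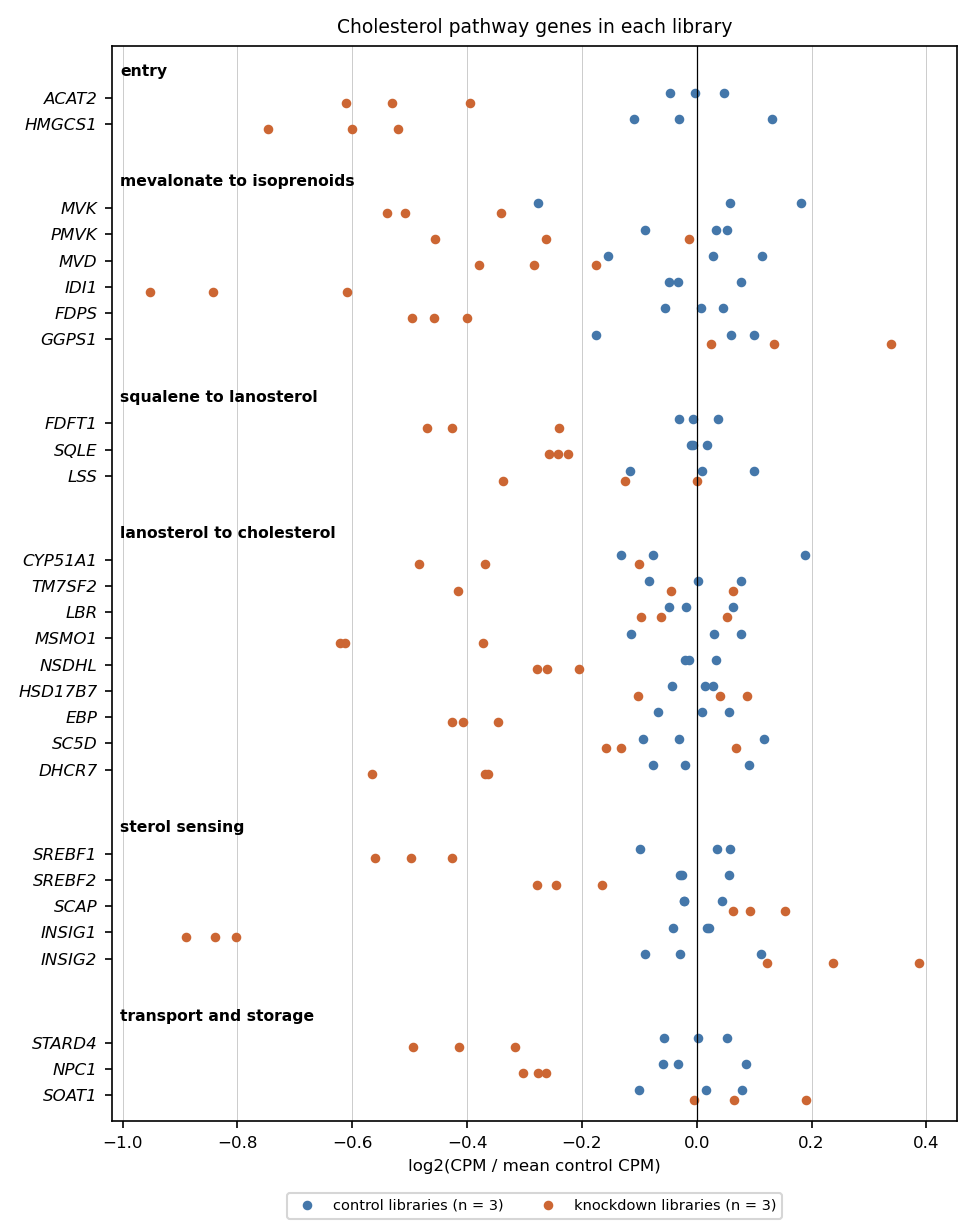
Level of each of the 28 pathway genes in each of the 6 libraries, as log2 of CPM over the mean CPM of the control libraries, grouped by role, with 1 point per library. For 17 genes all 3 knockdown points lie to the left of all 3 control points, and for INSIG2 and SCAP they lie to the right.

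The genes that sense sterols moved in both directions. INSIG1, which retains SCAP in the endoplasmic reticulum and is itself a target of SREBP, lies on chromosome 7 of GRCh38 from 155297776 to 155310235. It was at 81.4, 85.0 and 84.8 CPM in control replicates 1, 2 and 3 and at 48.0, 46.8 and 45.2 CPM in knockdown replicates 1, 2 and 3. The groups were far apart relative to their spread, and INSIG1 fell by 0.84 on the log2 scale (SE 0.0605, adjusted p = 2.3e-08, edgeR), the largest fall among the 28 genes. SE is the standard error of the log2 fold change, and adjusted p-values are from the edgeR test named above. INSIG2, a second retention protein that is not driven by SREBP in the same way, lies on chromosome 2 from 118088452 to 118110997. Its level was 68.7, 75.8 and 65.9 CPM in control replicates 1, 2 and 3 and 76.4, 91.7 and 82.7 CPM in knockdown replicates 1, 2 and 3. The nearest libraries of the 2 groups, control replicate 2 and knockdown replicate 1, were close together. INSIG2 rose by a log2 fold change of 0.25 (SE 0.0732, adjusted p = 0.017, edgeR), and the call was lost without control replicate 3 (log2 fold change 0.21, adjusted p = 0.11) and without knockdown replicate 2 (log2 fold change 0.18, adjusted p = 0.0567). Per length, INSIG1 was the more abundant of the pair in every control library, with a ratio of INSIG1 to INSIG2 TPM of 1.28, 1.21 and 1.39 in control replicates 1, 2 and 3. In knockdown replicates 1, 2 and 3 the ratio was 0.68, 0.553 and 0.591, so the order of the 2 genes was the opposite in every knockdown library.

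**Figure D2:**
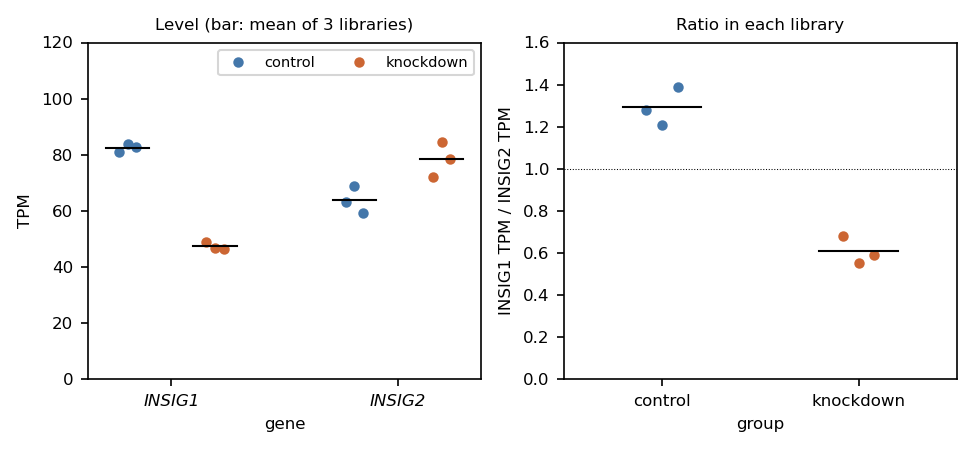
Left, TPM of INSIG1 and INSIG2 in each library (points) with the mean of 3 libraries (bars). Right, the ratio of INSIG1 to INSIG2 TPM in each library, which lies above 1 in the 3 control libraries (1.21 to 1.39) and below 1 in the 3 knockdown libraries (0.553 to 0.68).

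Both genes for the SREBP transcription factors were lower. SREBF1, whose products drive mainly fatty acid genes, lies on chromosome 17 from 17810399 to 17837002 and was at 161.4, 144.8 and 158.8 CPM in control replicates 1, 2 and 3. In knockdown replicates 1, 2 and 3 it was at 109.8, 105.1 and 115.3 CPM, all below the lowest control, a log2 fold change of -0.49 (SE 0.0598, adjusted p = 1.1e-05, edgeR). SREBF2, whose product drives mainly cholesterol genes, lies on chromosome 22 from 41833079 to 41907308 and was at 213.9, 201.6 and 202.1 CPM in control replicates 1, 2 and 3. Its knockdown values of 173.7, 169.7 and 183.5 CPM were also below every control, with a log2 fold change of -0.23 (SE 0.054, adjusted p = 0.00473, edgeR). The ratio of SREBF1 to SREBF2 TPM was 0.676 to 0.739 in the control and 0.583 to 0.595 in the knockdown libraries. SCAP, the escort of the SREBP precursors, had a log2 fold change of 0.10 (SE 0.0558) and an adjusted p of 0.194. Its 3 knockdown libraries, at 103.9 to 110.6 CPM, were above its 3 control libraries, at 97.9 to 102.5 CPM.

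The promoters of these genes were read for sequence motifs. RefSeq start sites (GRCh38.p14) were matched for 25 of the 28 genes, all but ACAT2, FDFT1 and SQLE, in windows of 250 bases before to 50 bases after each start, and a gene with several starts was counted once. The core of the sterol regulatory element that SREBP binds, searched as TCACNCCAC on both strands, was found in 1 of the 25, SREBF2 itself, and in 1.39% of all 27305 genes with a promoter. It starts 133 bases before the SREBF2 start site, and a CCAAT box on the opposite strand follows it. CCAAT boxes, which the factor NF-Y binds and which accompany sterol regulatory elements in many SREBP targets, were found in 18 of 25 pathway genes (72.0%) and in 39.7% of all genes. They were in 12 of the 14 lower genes with a promoter and in 6 of the 11 others, a difference that was not tested. The GC box GGGCGG was in 23 of 25 (92.0%, against 48.3% of all genes), in 13 of the 14 lower genes and 10 of the 11 others. The E-box CACGTG was in 4 of 25 (16.0%, against 8.77%), namely INSIG1, which was 1 of the 14 lower genes, and SCAP, SC5D and LSS, which were 3 of the 11 others. These matches are a description of letters in the windows and do not show binding. A missing match does not show that an element is missing, since only these spellings in these windows were searched. The shares of all genes include genes that these cells may not express, whereas all the pathway genes passed the filter on low counts. Stretches of 30 bases are given for the SREBF2 pair and for the 4 genes with the largest falls, with the motif in capitals, each read 5′ to 3′ on the strand that spells it.
SREBF2, sterol regulatory element core, chr22:41832962-41832991, plus strand: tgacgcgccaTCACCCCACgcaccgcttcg
SREBF2, CCAAT box, chr22:41832987-41833016, minus strand: aggctcatctcagCCAATgggcgagcgaag
INSIG1, CCAAT box, chr7:155297696-155297725, minus strand: gaggcggccgcaaCCAATgggaggccggcg
IDI1, CCAAT box, chr10:1049219-1049248, plus strand: cagacgccgccagCCAATcacgctttcgat
HMGCS1, CCAAT box, chr5:43313550-43313579, plus strand: agtccggcttctaCCAATcaaaaggaaact
MSMO1, CCAAT box, chr4:165327518-165327547, plus strand: ccatccgcggagCCAATggctgggaccgcc

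Of the 20 enzymes of synthesis, 12 were lower and none was higher at an adjusted p under 0.05 (18 of 20 had a log2 fold change below 0, with LBR at 0.03 and HSD17B7 at -0.04 under cyclic loess offsets). Over all tested genes, 11.9% were lower, 13.3% were higher and 49.3% had a log2 fold change below 0. The 2 enzymes not below 0, GGPS1 and HSD17B7, also had unadjusted p-values above 0.05 with edgeR and did not pass with DESeq2. At the entry of the pathway, both measured enzymes fell. HMGCS1, the cytosolic HMG-CoA synthase, lies on chromosome 5 from 43289395 to 43313512 and was at 46.3, 51.9 and 43.9 CPM in control replicates 1, 2 and 3 and at 31.2, 33.0 and 28.2 CPM in knockdown replicates 1, 2 and 3. The highest knockdown library was well below the lowest control, with a log2 fold change of -0.62 (SE 0.0806, adjusted p = 2.3e-05, edgeR). ACAT2, the cytosolic thiolase that joins acetyl-CoA units, went from 51.4 to 54.9 CPM in the controls to 34.8 to 40.4 CPM in the knockdown libraries, a log2 fold change of -0.51 (SE 0.0714, adjusted p = 4.8e-05). In GENCODE release 29, 52.3% of the exonic bases of ACAT2 are also exonic in genes on the opposite strand, among them TCP1 and SOD2. The strand setting of the counting is not given in the sources used here, so reads of ACAT2 and of those genes may not be told apart. The same holds to a lesser degree for FDPS (18.6% of exonic bases), HMGCS1 (15%) and IDI1 (14.8%).

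Of the 6 enzymes from mevalonate to isoprenoids, 4 were lower, beside 11.9% of all tested genes. IDI1, the isomerase that makes dimethylallyl diphosphate, lies on chromosome 10 from 1039152 to 1049170. Its values were 44.8, 48.8 and 45.3 CPM in control replicates 1, 2 and 3 and 25.8, 30.4 and 23.9 CPM in knockdown replicates 1, 2 and 3. No library of one group came near the other group, and the log2 fold change of -0.79 (SE 0.0848, adjusted p = 2.8e-06, edgeR) was the largest fall of any enzyme. FDPS, the farnesyl diphosphate synthase, had a log2 fold change of -0.45 (SE 0.0611, adjusted p = 3.5e-05). MVK, the mevalonate kinase, had a log2 fold change of -0.46 (SE 0.111, adjusted p = 0.00528), with a wide spread among the controls from 15.8 to 21.8 CPM. MVD, the mevalonate diphosphate decarboxylase, was lower by a smaller margin, with a log2 fold change of -0.28 (SE 0.0887, adjusted p = 0.0293). The lowest control of MVD, 22.7 CPM, was just above the highest knockdown library, 22.4 CPM. Its adjusted p was 0.134 without control replicate 1, 0.0991 without control replicate 3, 0.0872 without knockdown replicate 1 and 0.0727 without knockdown replicate 2. PMVK, the phosphomevalonate kinase, had a log2 fold change of -0.23 (SE 0.12, adjusted p = 0.177) and overlapping groups, and without knockdown replicate 3 it was -0.36 (adjusted p = 0.0427). GGPS1, which makes the geranylgeranyl group used on small GTPases and so stands on a branch away from sterols, had a log2 fold change of 0.17 (SE 0.104, adjusted p = 0.259). For GGPS1, 37.3% of exonic bases are shared with other genes on the same strand.

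From squalene to lanosterol, FDFT1 and SQLE were lower. FDFT1, the squalene synthase, had a log2 fold change of -0.38 (SE 0.0653, adjusted p = 4.0e-04, edgeR), with at least 95.4 CPM in every control and 70.4 to 82.6 CPM with knockdown. SQLE, the squalene epoxidase that catalyses a rate-limiting oxidation, was among the most even genes within groups, with 86.6, 88.4 and 86.8 CPM in control replicates 1, 2 and 3 and 73.0, 74.7 and 73.8 CPM in knockdown replicates 1, 2 and 3. Its difference was small but larger than the spread, a log2 fold change of -0.24 (SE 0.0559, adjusted p = 0.00414). LSS, the lanosterol synthase, had overlapping groups, a log2 fold change of -0.15 (SE 0.0817) and an adjusted p of 0.209.

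The steps from lanosterol to cholesterol were divided, with 4 of 9 enzymes lower, the other 5 not past the test and none higher. The share of all tested genes that were lower was 11.9%. MSMO1, the sterol methyl oxidase, was at 64.8, 74.0 and 71.7 CPM in control replicates 1, 2 and 3 and at 45.6, 54.2 and 45.9 CPM in knockdown replicates 1, 2 and 3. These groups did not overlap, and the log2 fold change was -0.53 (SE 0.0766, adjusted p = 6.6e-05, edgeR). DHCR7, which makes cholesterol from its dehydro precursor, had a log2 fold change of -0.43 (SE 0.0648, adjusted p = 1.1e-04, with 175.7, 156.4 and 162.5 CPM in control replicates 1, 2 and 3 and 127.7, 111.4 and 128.1 CPM in knockdown replicates 1, 2 and 3). EBP, the sterol isomerase, followed with -0.39 (SE 0.063, adjusted p = 1.9e-04). NSDHL, a sterol dehydrogenase, was lower by a log2 fold change of -0.25 (SE 0.0699, adjusted p = 0.0149). The call for NSDHL was lost without control replicate 1 (adjusted p = 0.0608), without control replicate 3 (0.0532) and without knockdown replicate 1 (0.0557).

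The 5 enzymes of this stretch that did not pass the test were not alike. CYP51A1, the lanosterol demethylase, had a log2 fold change of -0.31 with a standard error of 0.122 (adjusted p = 0.073, edgeR). It passed the threshold in 4 of 13 alternatives, among them the fits with no filter on low counts (adjusted p = 0.0408), with cyclic loess offsets (0.0357) and without knockdown replicate 1 (0.0347). Of its exonic bases, 79.4% are shared with other annotated genes on the same strand, and annotated CYP51A1 pseudogenes held 2.79% as many counts, so its level of 8.41 to 13.4 CPM is uncertain. TM7SF2 and LBR, which share the sterol reductase step, had log2 fold changes of -0.12 (SE 0.0983) and -0.03 (SE 0.0564). LBR, also a protein of the inner nuclear membrane, was the more abundant of these by TPM (140.4 ± 5.46 against 39.5 ± 2.44 in the controls, SD, n = 3). SC5D, a sterol desaturase, had -0.07 (SE 0.077) and HSD17B7, a sterol ketoreductase, 0.01 (SE 0.0993) on the same log2 fold change scale. HSD17B7 pseudogenes held 8.47% as many counts as the gene.

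**Figure D3:**
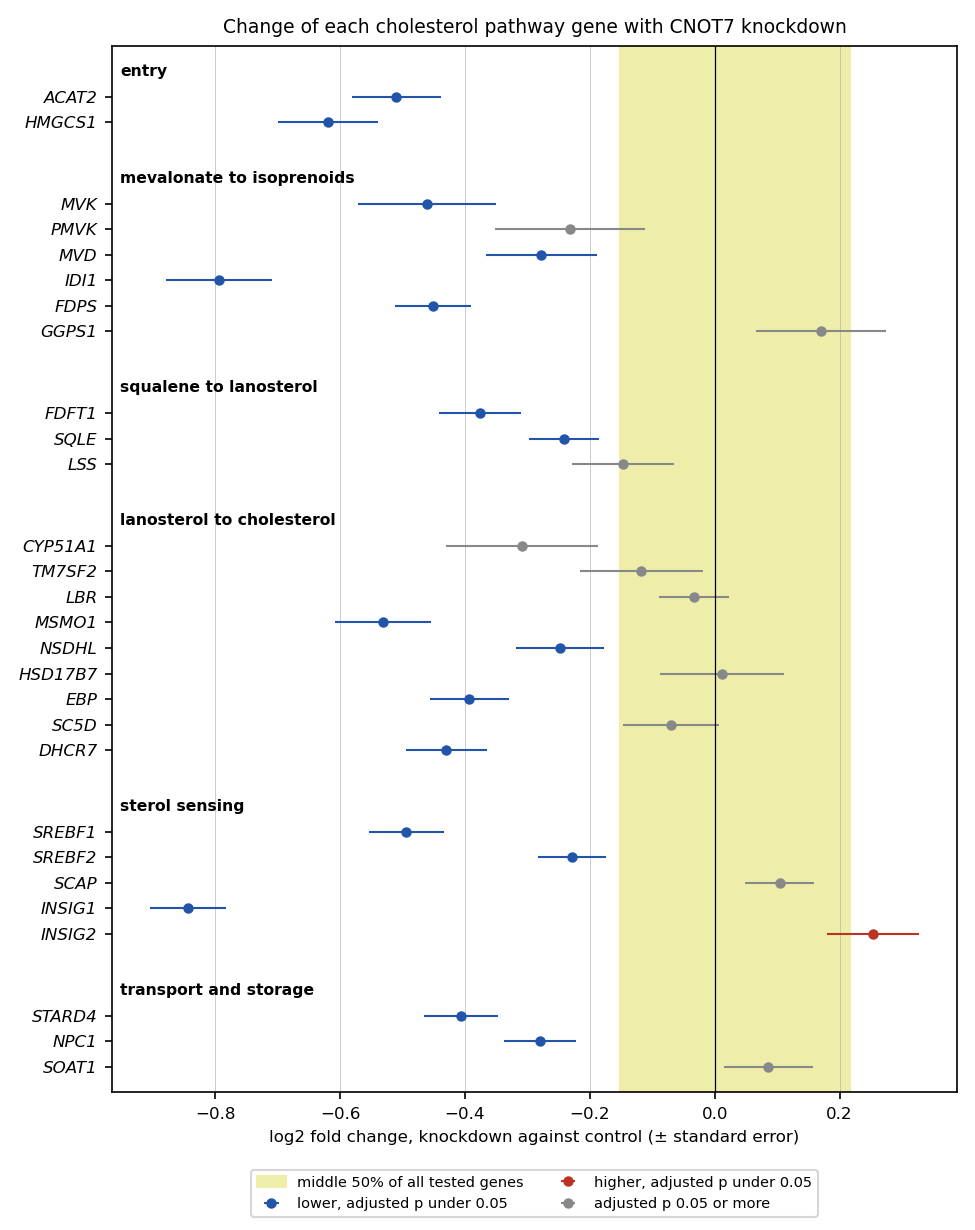
Log2 fold change of each of the 28 pathway genes, knockdown against control, with its standard error from edgeR (n = 3 libraries per group) and the shaded range of the middle 50% of all tested genes. The 17 lower genes lie between -0.84 and -0.23, and INSIG2 at 0.25 is the 1 higher gene.

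Among the genes of cholesterol transport and storage, STARD4 and NPC1 were lower. STARD4, a soluble sterol carrier and SREBP target, was at 156.9, 169.4 and 163.6 CPM in control replicates 1, 2 and 3 and at 122.5, 131.1 and 115.9 CPM in knockdown replicates 1, 2 and 3. All 3 knockdown values were below the controls, with a log2 fold change of -0.41 (SE 0.0591, adjusted p = 7.1e-05, edgeR). NPC1, the membrane protein that exports cholesterol from lysosomes, had a log2 fold change of -0.28 (SE 0.0573, adjusted p = 0.00166). SOAT1, which esterifies cholesterol for storage in lipid droplets, had a log2 fold change of 0.09 (SE 0.0713, adjusted p = 0.422), with overlapping groups of 48.5 to 54.9 and 51.8 to 59.3 CPM.

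Compared per length in the control libraries, the 28 genes spanned from 8.53 TPM (HSD17B7) to 142.4 TPM (DHCR7). DHCR7 (± 9.57, SD, n = 3) and LBR (140.4 ± 5.46) did not differ beyond their spread, and the next were STARD4 at 103.2 ± 3.5, EBP at 99.9 ± 4.1 and SREBF2 at 97.9 ± 4.17 TPM, whose libraries also overlapped. Of the 27 pairs of neighbours in this order, 20 overlapped. In the knockdown libraries the order differed most for INSIG1, from rank 7 (82.4 ± 1.42 TPM) to rank 14 (47.4 ± 1.42 TPM), and for INSIG2, from rank 12 (63.8 ± 4.81 TPM) to rank 6 (78.4 ± 6.27 TPM). LBR ranked first in the knockdown libraries at 141.3 ± 5.82 TPM, above DHCR7 at 109.1 ± 9.99 TPM.

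**Figure D4:**
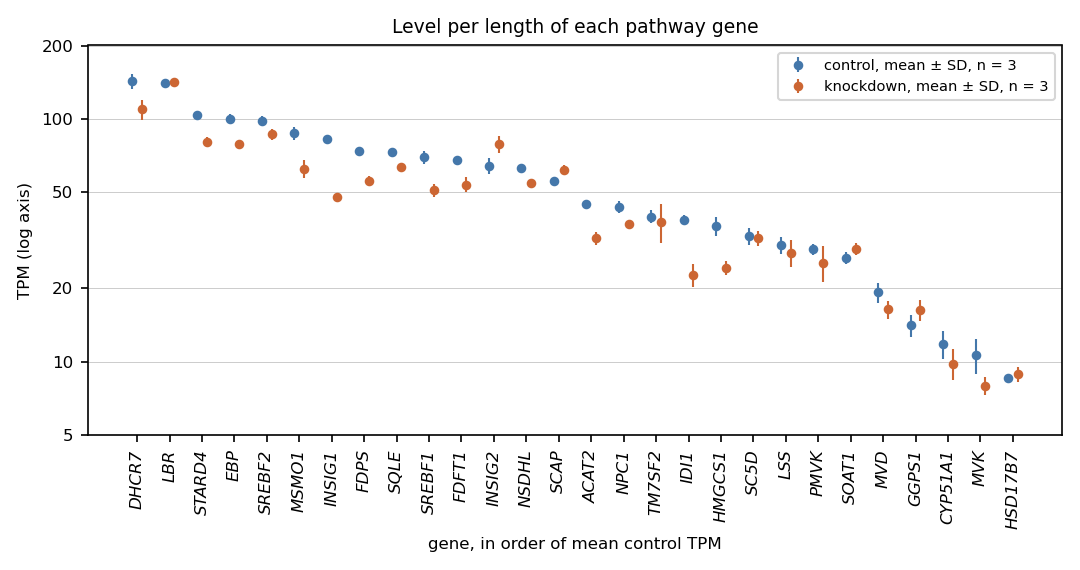
Mean TPM of each pathway gene with its SD over 3 libraries per group, on a log axis, in order of the control mean. The order runs from DHCR7 at 142.4 TPM to HSD17B7 at 8.53 TPM in the controls, and the knockdown value of INSIG2 (78.4 TPM) is above its control value (63.8 TPM) while that of INSIG1 (47.4 TPM) is below (82.4 TPM).

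Around these genes, 56 others of sterol handling, isoprenoid use and SREBP-driven lipogenesis were read from the same fit, and 52 were tested. Of those, 12 were lower and 10 were higher (adjusted p under 0.05, edgeR), 42.3% against the 25.2% of all tested genes, with a median log2 fold change of -0.02. The machinery that cleaves SREBP and degrades sterol-regulated proteins had 1 of 10 genes past the test, RNF139, an endoplasmic reticulum ubiquitin ligase with a log2 fold change of -0.45 (SE 0.0904, adjusted p = 0.00134). The proteases that cut SREBP, MBTPS1 and MBTPS2, named after their values were seen, had log2 fold changes of 0.02 (SE 0.0549) and -0.09 (SE 0.0669) and did not pass.

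Of 16 tested genes of sterol transport, esterification and efflux, 7 were higher, 3 were lower and 6 did not pass the test, with a median log2 fold change of 0.26. Among all tested genes 13.3% were higher and 11.9% lower. GRAMD1B, which moves cholesterol from the plasma membrane, had the largest log2 fold change, 1.06 (SE 0.229, adjusted p = 0.00258, edgeR), at a low level of 1.01 to 2.12 CPM in the controls and 2.94 to 3.73 CPM with knockdown. ABCG1, a sterol exporter, was at 8.33, 7.7 and 9.3 CPM in control replicates 1, 2 and 3 and at 13.1, 13.8 and 15.3 CPM in knockdown replicates 1, 2 and 3, a rise of 0.74 on the log2 scale (SE 0.108, adjusted p = 7.9e-05). ABCA1, another exporter, rose by 0.65 on the same scale from a low level (1.16 to 1.71 against 1.98 to 2.5 CPM, standard error 0.222, adjusted p = 0.0398). In the opposite direction, NPC2, the lysosomal partner of NPC1, was at 197.1, 217.2 and 201.6 CPM in control replicates 1, 2 and 3 and at 112.4, 118.5 and 116.7 CPM in knockdown replicates 1, 2 and 3. The 2 groups of NPC2 were far apart, a log2 fold change of -0.83 (SE 0.0561, adjusted p = 1.3e-08). The other 2 lower genes, named after their values were seen, were VLDLR, a lipoprotein receptor (-0.37), and NR1H2, a sterol-activated nuclear receptor (-0.24).

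Of 12 genes that use isoprenoids in other branches, 1 was lower and 1 was higher, 16.7% beside the 25.2% called among all tested genes. With 12 genes, these shares cannot be told apart. ICMT, which methylates prenylated proteins, had a log2 fold change of -0.46 (SE 0.056, adjusted p = 1.1e-05, edgeR), and PGGT1B, a subunit of the enzyme that attaches geranylgeranyl groups to proteins, of 0.23 (SE 0.0748, adjusted p = 0.0312). Of 14 lipogenic genes that SREBP is known to drive, 7 were lower and 2 were higher, against 11.9% lower and 13.3% higher among all tested genes, with a median log2 fold change of -0.14. The lower genes with the largest changes were FADS2 and FADS1, both fatty acid desaturases (-0.52 and -0.47), SCD, the stearoyl-CoA desaturase (-0.51), and FASN, the fatty acid synthase (-0.37). The standard errors of these 4 log2 fold changes were 0.0473 to 0.0716, and their groups did not overlap. FADS1 lies within the span of FADS2 on the opposite strand. How many exonic bases they share was not measured, so reads of FADS1 and FADS2 may not be told apart. The 2 higher genes, named after their values were seen, were ACSS2, an acetyl-CoA synthetase (0.35), and ME1, the malic enzyme that supplies NADPH (0.27).

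**Figure D5:**
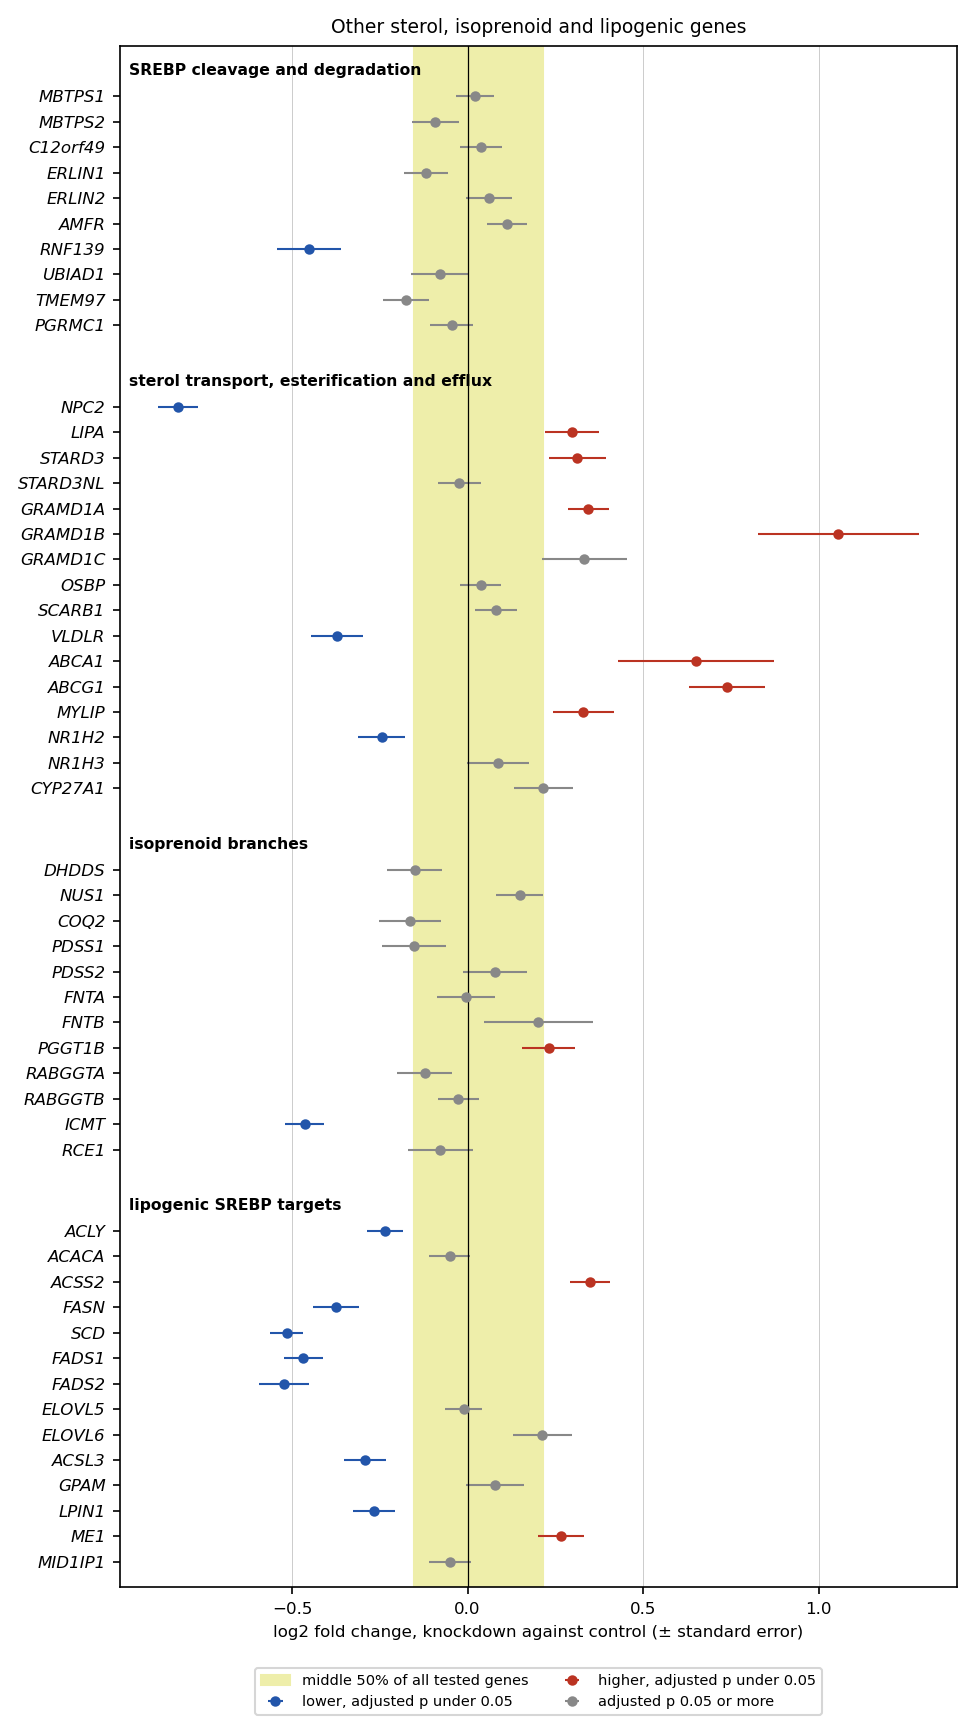
Log2 fold change of the 52 tested genes of sterol handling, isoprenoid use and lipogenesis outside the 28 pathway genes, knockdown against control, with the standard error from edgeR (n = 3 libraries per group) and the shaded range of the middle 50% of all tested genes. GRAMD1B at 1.06 and NPC2 at -0.83 are the most distant from 0 in each direction.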

How the data were processed

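The authors deposited raw counts per gene for 6 libraries, with a gene length in bases. The submitters' processing notes name CASAVA 1.8, fastp, HISAT2 2.0.5, featureCounts 1.5.0-p3 and DESeq2 1.20.0 without roles or order, and the build GRCh38. Libraries were made from TRIzol RNA with the NEBNext Ultra kit. The strand setting is not given in the sources used here. The number of columns from other samples was 0. Positions of all 28 genes matched GENCODE release 29.

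The counts were tested with edgeR 4.0.16 under R 4.3.3. The filterByExpr function left 17574 of 58735 genes, which were scaled with TMM factors and tested with the quasi-likelihood test between the groups, calling genes at a Benjamini-Hochberg adjusted p under 0.05 whatever their fold change. Standard errors were derived from each log2 fold change and its F statistic. Fold changes given without a p passed the threshold where the text calls the gene lower or higher. TPM used the deposited gene length. Alternatives were DESeq2 1.42.0, RLE factors, other filters, cyclic loess offsets (limma 3.58.1), a replicate block and each library left out. Leaving out both libraries numbered 2 was added after the data were seen. Replicates of a group differed by more than sampling noise (chi-square per degree of freedom 3.2 to 10.8), so none was a copy of another. The steps were tested on simulated counts. Annotation and motifs were handled with Python 3.11.15.

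The pathway genes, the lists of other genes and the roles were chosen with earlier results of these data known. The genes named were the 28 pathway genes, CNOT7 and, from each of the 4 other lists, up to 4 genes with the largest absolute log2 fold change among genes past the threshold whose groups did not overlap. Genes named outside that rule are said to be so or are given as background to a count.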

Additional observations from a re-analysis of the deposited data

How the results depend on the processing

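Over 13 alternatives, 338 of 364 log2 fold changes of the 28 pathway genes kept their direction and their side of the threshold. Of the 17 lower genes, 15 kept the call in every alternative, the exceptions being MVD and NSDHL, which lost it in fits that left out a library. The number of pathway genes past the threshold was 18 with DESeq2, RLE factors, a minimum of 10 counts and both libraries numbered 2 left out, and 19 with no filter and with cyclic loess offsets. The number of higher pathway genes was 2 with the replicate block and between 0 and 1 with each library left out. The log2 fold change of HSD17B7 was -4.9e-04 with DESeq2, -0.0059 with no filter, -0.041 with cyclic loess offsets, -0.033 to 0.054 with each library left out and -0.024 without both libraries numbered 2. LBR was at 0.027 with cyclic loess offsets, TM7SF2 between -0.22 and 0.0093 with a library left out, and GGPS1 between -1.5e-04, without both libraries numbered 2, and 0.227, without knockdown replicate 1, none past the threshold. In the main fit HSD17B7 (0.01) and LBR (-0.03) lay near 0, while TM7SF2 was at -0.12 and GGPS1 at 0.17. The cause of the changes of direction between fits was not tested.

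With the replicate number as a block, 21 pathway genes passed, LSS (adjusted p = 0.0191), CYP51A1 (0.0134) and SCAP (0.046, edgeR) being added, and 6508 genes in all against 4424. Libraries of the same number correlated in their deviations from the group means at 0.0228, 0.153 and -0.0153 for replicates 1, 2 and 3. Libraries of different numbers correlated at -0.151 to 0.132, so the highest value was that of the libraries numbered 2. The main fit did not use the numbers to pair the libraries. Whether libraries of the same number share an effect was not tested. Without 1 library, 15 to 19 pathway genes passed. The depth and 3 libraries per group limit what can be seen to the standard errors given, 0.054 to 0.122 on the log2 scale for the pathway genes.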

Other observations

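Many of the 28 pathway genes had replicate 2 at the same end of both groups. In replicate 2 of both groups, 11 genes had their lowest CPM of the group, namely MVK, PMVK, MVD, LSS, TM7SF2, NSDHL, EBP, DHCR7, SREBF1, SREBF2 and SCAP. Another 11 had their highest CPM of the group in replicate 2 of both groups, namely HMGCS1, IDI1, FDFT1, SQLE, LBR, MSMO1, SC5D, INSIG2, STARD4, NPC1 and SOAT1. These were 39.3% of the pathway genes each, against 22.9% of all tested genes that were lowest and 24.1% that were highest there in both groups. The other 6 pathway genes, ACAT2, FDPS, GGPS1, CYP51A1, HSD17B7 and INSIG1, did neither. The libraries numbered 2 had the smallest total counts of their groups, 23788451 and 27523812, and the largest shares of mitochondrial counts, 6.88% and 7.4%, against 6.36% to 6.69% and 6.54% to 6.88% in the others. The part of these in the pattern was not tested. With both libraries numbered 2 left out, 17 pathway genes were lower and 1 was higher, as with all libraries.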
